A study of Mus musculus with 2 samples.

Results

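The mononuclear cell attracting chemokines described here are 10 genes, Ccl2, Ccl7, Ccl3, Ccl4, Ccl5, Ccl20, Cxcl10, Cxcl12, Cxcl14 and Cxcl16, taken by symbol from the 20198 genes of a single-cell count table of mouse cornea. All 10 genes were found. UMIs of 9 of them were found in the UW library and of all 10 in the W library. The table holds 16450 cells of the UW library, from the pooled corneas of 4 unwounded male mice, and 12417 cells of the W library, from those of 4 male mice taken 24 h after the epithelium of the central cornea was scraped away. Mice of both groups were 6 to 8 weeks old, and the strain is not stated in the sources used here. The wounded mice were anaesthetised with pentobarbital and given procaine and ofloxacin on the eye, which cannot be told apart from the wound. With 1 library per condition, the 4 mice of a group cannot be told apart, no test between UW and W can be made, and every interval below covers counting error only.

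Chemokines are small secreted proteins that bind proteoglycans in the tissue and guide leukocytes that carry the matching receptors. In CC chemokines the first pair of cysteines is adjacent, and in CXC chemokines another residue lies between them. Ccl2 and Ccl7 bind Ccr2 and draw monocytes. Ccl3, Ccl4 and Ccl5 reach monocytes, macrophages, NK cells and T cells, and Ccl3 and Ccl5 bind Ccr1. Ccl20 binds Ccr6, and Cxcl10 is an interferon-inducible ligand of Cxcr3 on activated T and NK cells. Cxcl12 binds Cxcr4 and the scavenging receptor Ackr3, Cxcl14 is made constitutively by many epithelia and fibroblasts, and Cxcl16 is a membrane-bound ligand of Cxcr6 that Adam10 can shed.

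Cells were compared within the deposited clusters, numbered by the authors without cell type names. Of the 17 clusters 10 were epithelial by their markers, among them the basal-like cluster 3 (led by Krt18, with Lamb3), the mitotic-like cluster 8 (Top2a, Mki67), the limbal quiescent-like cluster 9 (Wfdc18, Dlk2) and the S phase-like cluster 11 (Mcm3, Mcm5). Cluster 0 was CSC-like, that is like corneal stromal cells, and was led by Kera. Cluster 10 was led by Penk, Myoc and Wisp2, scored highest for corneal endothelial genes and next for stromal genes, and is called by its number. Cluster 15 was Mono-like (Lyz2, Fcgr1). Cluster 13 scored highest for neutrophil genes and held the highest S100a8, S100a9, Csf3r, Cxcr2 and Retnlg. Its cells were shallow (median 2509.5 UMIs) and its leading genes were others. Cluster 14 was led by class II genes and C1qa, and cluster 16 by Cd3g and Gzma, and all of these are called by number. Clusters 13 to 17 held at most 7 cells each in UW, and 710, 354, 251, 215 and 29 cells in W, so their levels are given for W alone and cluster 17 is left aside. Ccl3 was itself among the genes that lead cluster 13 and Cxcl14 among those that lead cluster 10, so that their levels there describe how the clusters formed and are not findings. The libraries had medians of 22014 (UW) and 20290 (W) UMIs per cell and shared 52 barcodes.

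Of the 10 members 6 lie on chromosome 11 of the GRCm38 build in the GENCODE M21 annotation. Ccl2 (chr11:82035571-82037453, plus strand) and Ccl7 (chr11:82045712-82047525, plus strand) are 8.26 kb apart, and Ccl3 (chr11:83647844-83649355, minus strand) and Ccl4 (chr11:83662584-83664683, plus strand) are 13.2 kb apart and do not overlap. Ccl5 (chr11:83525778-83530518, minus strand) lies 117 kb from Ccl3. Each of these 5 genes has 3 exons. Cxcl16 (chr11:70453983-70459984) lies on the same chromosome, while Cxcl10 (chr5:92346638-92348889), Cxcl12 (chr6:117168535-117181367), Cxcl14 (chr13:56288643-56296551) and Ccl20 (chr1:83116766-83119167) are each on another.

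The upstream sequence of 3 members is shown because each was highest in a different cell group, namely Cxcl10 in cluster 15, Ccl3 in cluster 13 and Cxcl14 in cluster 10. The 250 bases before the RefSeq start site (GRCm38.p6, minus strand, written 5′ to 3′) are given with matches to the searched motifs in capitals, for Cxcl10 at chr5:92348890-92349139, for Ccl3 at chr11:83649379-83649628 and for Cxcl14 at chr13:56296552-56296801.
Cxcl10: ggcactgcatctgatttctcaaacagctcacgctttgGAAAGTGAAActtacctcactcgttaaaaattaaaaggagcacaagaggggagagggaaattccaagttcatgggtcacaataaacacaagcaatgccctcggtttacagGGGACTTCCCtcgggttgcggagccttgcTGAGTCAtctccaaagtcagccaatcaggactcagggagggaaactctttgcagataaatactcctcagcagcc
Ccl3: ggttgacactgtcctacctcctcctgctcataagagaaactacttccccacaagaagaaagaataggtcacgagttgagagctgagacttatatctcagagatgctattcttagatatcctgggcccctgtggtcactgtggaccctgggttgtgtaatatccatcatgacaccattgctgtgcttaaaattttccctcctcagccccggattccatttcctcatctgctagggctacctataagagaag
Cxcl14: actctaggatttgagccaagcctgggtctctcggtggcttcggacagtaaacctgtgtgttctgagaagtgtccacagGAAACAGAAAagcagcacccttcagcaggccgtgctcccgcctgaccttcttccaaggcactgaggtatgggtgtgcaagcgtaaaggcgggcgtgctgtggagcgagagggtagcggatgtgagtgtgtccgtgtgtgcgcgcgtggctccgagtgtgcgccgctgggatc
The motifs were the NF-kappaB motifs (GGG and then TTTCC or TTCCC, with any 2 bases between them), the interferon response motif (GAAA and GAAA, with any 2 bases between them) and the AP-1 motif TGANTCA, read on both strands. Cxcl10 held GAAAGTGAAA from base -213 to -204, GGGACTTCCC from -103 to -94 and TGAGTCA from -74 to -68, counted back from the start site. Cxcl14 held GAAACAGAAA from -172 to -163, Ccl3 and Cxcl12 held no match, and Ccl20 held overlapping matches to both NF-kappaB motifs between -81 and -71. Of 27025 genes, 2.72% held either NF-kappaB motif in the same window, 3.04% the interferon response motif and 6.87% the AP-1 motif, and 0.0962% held both an NF-kappaB and the interferon response motif. Of the 10 members 5 had an entry in the promoter table. The other members are Ccl2, Ccl7, Ccl4, Ccl5 and Cxcl16.

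**Figure D1:**
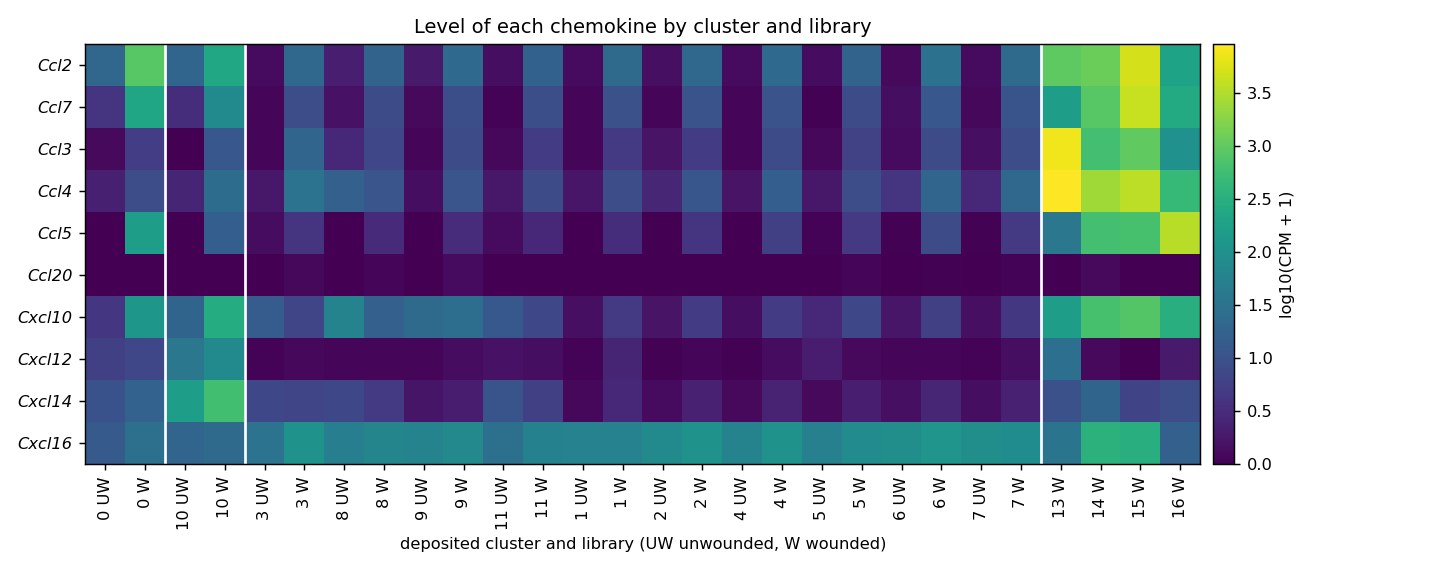
Level of each chemokine (rows) in each deposited cluster and library (columns), as log10(CPM + 1) of the counts summed over cells, with white lines between cluster 0, cluster 10, the epithelial clusters and the immune clusters. Ccl3 and Ccl4 were highest in cluster 13, Ccl2 and Ccl7 in cluster 15, Ccl5 in cluster 16, Cxcl14 in cluster 10, and Cxcl16 was spread over the epithelial clusters.

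Across whole libraries, all the CC members except Ccl20 were low in UW and higher in W. In counts per 1000000 UMIs of the library (CPM), Ccl2 was 2.11 in UW and 192 in W, Ccl7 was 0.455 and 85.6, Ccl3 was 0.414 and 72.8, Ccl4 was 1.94 and 140, and Ccl5 was 0.310 and 47.5. Cxcl10 was 5.13 in UW and 48.3 in W. The other CXC members differed less, with Cxcl12 at 1.09 and 3.36, Cxcl14 at 4.62 and 20.8, and Cxcl16 at 59.3 and 78.6. In UW, then, Cxcl16 was the highest member, and in W Ccl2, Ccl4 and Ccl7 exceeded it. Ccl20, the ligand of Ccr6, had 0 UMIs in UW and 30 in W, where clusters 8 and 9 held 8 UMIs each, so it was too sparse to compare. Whole-library values also carry the different make-up of cells in UW and W, so the comparisons below are within clusters.

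Each chemokine had its own set of source cells in W, and the cluster with the highest level did not always hold the largest share of the total. The CSC-like cluster 0 held 50.3% of Ccl2 UMIs and the Mono-like cluster 15 held 25.2%, although the level in cluster 15 (5168 CPM, 95% Poisson interval 5083 to 5255) was above that in cluster 0 (861 CPM, 851 to 871). For Ccl7 the order was turned, with 46.0% in cluster 15 and 27.8% in cluster 0. Cluster 13 held 66.1% of Ccl3 UMIs and 41.3% of Ccl4 UMIs, with 25% of Ccl4 in cluster 15 and 22.3% in cluster 14. Ccl5 UMIs were spread over cluster 0 (39.0%), cluster 16 (25.6%), cluster 14 (16.1%) and cluster 15 (12.4%). Cxcl10 was the most dispersed, with 29.3% in cluster 0, 17% in cluster 10, 16.9% in cluster 14 and 16% in the epithelial clusters. Cxcl12 and Cxcl14 were concentrated in cluster 10, with 66.6% and 79.3%. The epithelial clusters held 97.9% of Cxcl16 UMIs in UW and 85.4% in W. Thinning cells to 2000 UMIs gave the cells kept the same weight and left out shallower ones, so that 584 of 710 cells of cluster 13 remained. It lowered the share of Ccl2 in cluster 0 to 30.8% and that of Ccl5 to 13.9%, and raised the share of Ccl4 in cluster 13 to 70.4%.

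**Figure D2:**
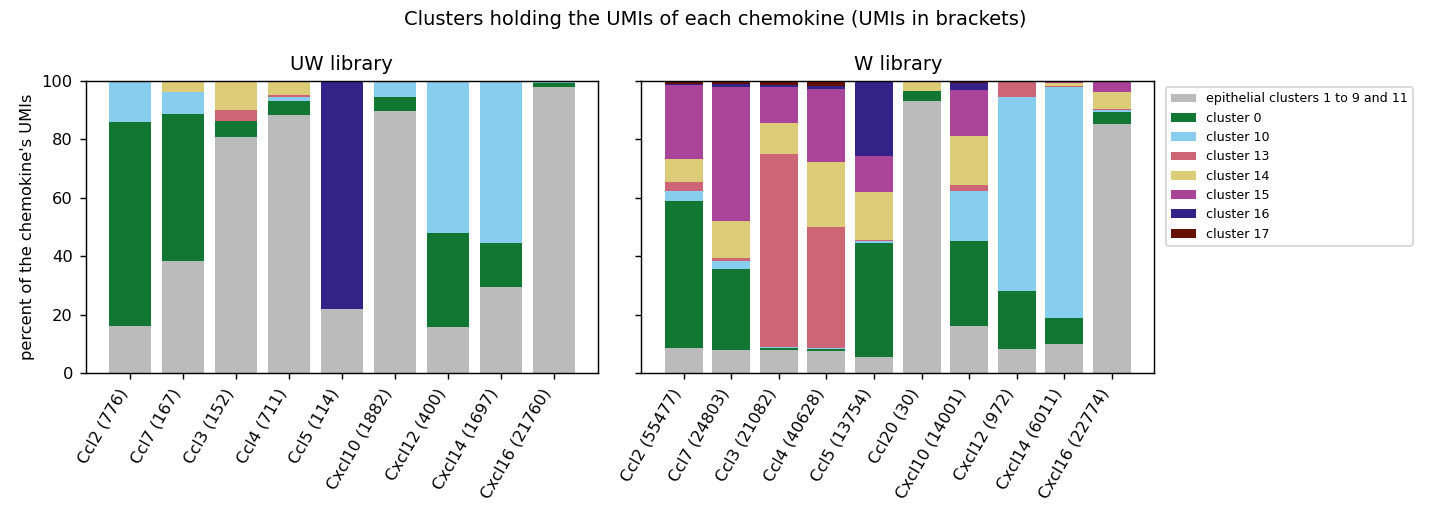
Percent of each chemokine's UMIs held by each group of clusters (y axis) in UW (left) and W (right), with the number of UMIs in brackets. Ccl20 has no bar in UW, where it had 0 UMIs, and the W bars of Cxcl14 and Ccl3 are mostly cluster 10 and cluster 13.

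In CSC-like cells the monocyte attractants Ccl2 and Ccl7 were low in UW and were far higher in W. Ccl2 was 19.1 CPM (17.6 to 20.8) in the 2369 UW cells of cluster 0 and 861 CPM in the 1719 W cells, which is a log2 ratio of 5.49 (5.37 to 5.62) or 45.0-fold. Ccl7 was 2.95 and 212 CPM, a log2 ratio of 6.17 (5.86 to 6.50). A UMI of Ccl2 was found in 8.10% of UW cells and 74.3% of W cells of cluster 0, or 4.62% and 54.4% after thinning each cell to 5000 UMIs (median depths 11853 and 17588 UMIs). In the epithelial clusters of W, 36.7 to 45.7% of cells held a Ccl2 UMI before thinning and 7.55 to 12.6% after it (median depths 20584 to 35514 UMIs), so cluster 0 lay above them on either measure. The cells of cluster 0 were uneven in W. The 172 cells with most Ccl2 held 64.1% of its UMIs, and 109 of 1719 cells held no UMI of any member.

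The lymphocyte attractants Ccl5 and Cxcl10 were found in CSC-like cells of W as well. Ccl5 had 0 UMIs in UW and 5369 in W (165 CPM, 161 to 170), which is at least 1569-fold higher against the 3 counts that a UW sum of 0 allows. On the log2 scale this bound was 10.62, and 8.96 after thinning to 5000 UMIs. Cxcl10 was 3.16 CPM in UW and 126 CPM in W, a log2 ratio of 5.32 (5.02 to 5.64). Both were found in fewer cells than Ccl2, with a UMI in 13.2% (Ccl5) and 21.5% (Cxcl10) of W cells, against 5.13 to 7.24% and 7.20 to 18.8% in the epithelial clusters. After thinning the shares were 8.43% and 12.2% in cluster 0, against 0.795 to 2.02% and 2.02 to 6.84% in the epithelial clusters. Of the 1719 cells, 22 held 50% of the Ccl5 UMIs and 23 cells 50% of the Cxcl10 UMIs of W cluster 0. Lymphocyte genes moved with Ccl5, since the 227 cells with Ccl5 (median 21563 UMIs) had 9.01 CPM of Nkg7 and 2.25 CPM of Cd3e, against 0.111 CPM of each in the 1492 without it (17084 UMIs). The 11 cells with a UMI of Nkg7 or Cd3e held 2.46% of the Ccl5 UMIs, and Ccl5 was 163 CPM without them. This split and this alternative were chosen after the data were seen. Cxcl16, which binds Cxcr6, was 12.1 and 28.1 CPM, a log2 ratio of 1.22 (1.04 to 1.41). Cxcl12 at 4.54 and 5.92 CPM (log2 0.38, 0.05 to 0.72) and Cxcl14 at 9.0 and 16.3 CPM (log2 0.86, 0.64 to 1.08) stayed under 2-fold.

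**Figure D3:**
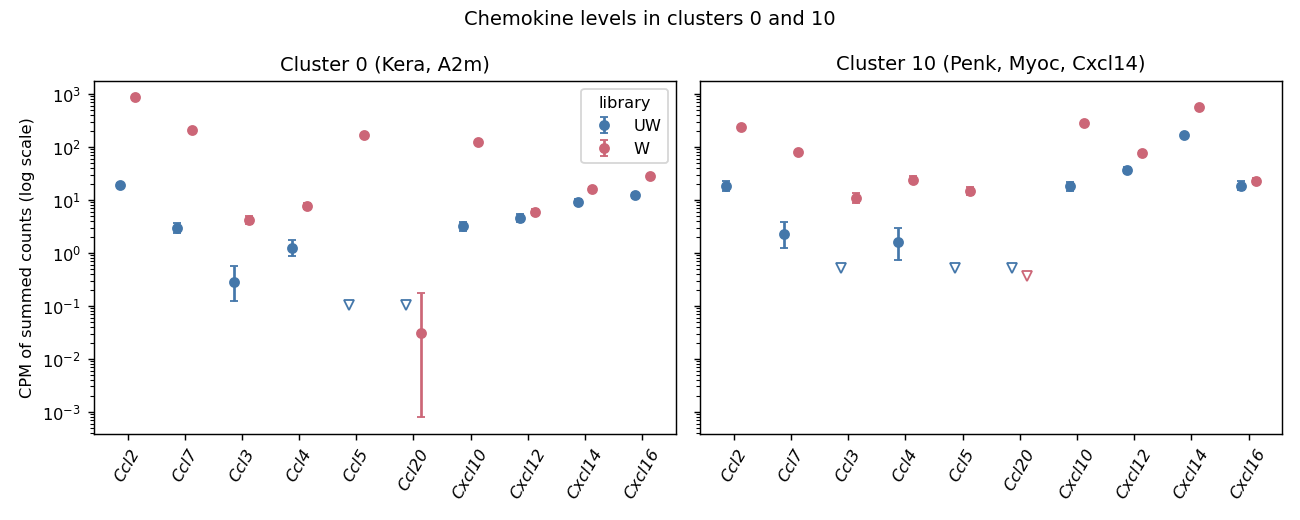
Level of each chemokine in cluster 0 (left) and cluster 10 (right) in UW and W, as CPM of summed counts on a log axis with exact Poisson 95% intervals, which in many cases are smaller than the points. Open triangles stand at the 3 counts that a sum of 0 allows. In cluster 0 Ccl2, Ccl7, Ccl5 and Cxcl10 lie far apart between UW and W while Cxcl12 and Cxcl14 lie close, and in cluster 10 Cxcl16 lies close.

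Counted over the members with at least 20 counts in both libraries together, 7 of 9 were higher in W by 2-fold or more in cluster 0 and none was lower, while 7.34% of all genes compared there were higher and 9.67% lower. The median log2 ratio was 3.89 over these members and -0.15 over all genes. In cluster 10, 8 of 9 were higher and none lower, against 4.97% and 6.63% of all genes, with medians of 3.94 and -0.09. No test stands behind these counts, since a single library represents each condition. Ccl3 and Ccl4 are among the members counted, but in cluster 0 of W they stood at 0.0548% and 0.0850% of their level in cluster 13, which lay among the shares of leukocyte genes in cluster 0. Of those that were also highest in cluster 13, S100a8 (0.338%), S100a9 (0.208%) and Tyrobp (0.102%) were above them and Csf3r (0.0302%), Cxcr2 (0.0258%) and Retnlg (0.0130%) below. The part of free RNA in Ccl3 and Ccl4 of cluster 0 was not tested. By the same measure Ccl2 in cluster 0 stood at 16.7% of cluster 15, Cxcl10 at 15.6% and Ccl5 at 4.88% of cluster 16, above the 0.0130 to 0.338% that these and the other leukocyte references spanned. The leukocyte genes themselves were also higher in W, since 5 of 6 (Tyrobp, Fcer1g, Lyz2, Laptm5, Ptprc and Coro1a) passed 2-fold in cluster 0, where their summed level was 13.5 CPM in UW and 33.4 CPM in W with none at 0, against 25600 CPM in cluster 15. The 5 neutrophil genes (S100a8, S100a9, Csf3r, Cxcr2 and Retnlg) summed to 2.14 CPM in UW (2 at 0) and 87.6 CPM in W. Both of those compared, S100a8 and S100a9, were higher, with a median log2 ratio of 5.84, as large as that of Ccl2. These 2 genes also had UMIs in the epithelium of UW, at 3.72 and 151 CPM in cluster 7. Of 4 stromal genes (Kera, Lum, Col1a1, Col1a2) 2 were lower, with summed levels of 34100 and 16700 CPM. Leaving out the cells of cluster 0 with a UMI of Tyrobp or Ptprc, an alternative added after the data were seen, kept every member of clusters 0 and 10 on its side of 2-fold. In cluster 10 it moved the log2 ratio of Ccl4 from 3.94 to 2.49, and that of Ccl2 from 3.67 to 3.55. There 4 of 5 leukocyte genes compared were also higher in W past 2-fold, with summed levels of 16.2 CPM in UW (2 of 6 at 0) and 61.5 CPM in W, and the neutrophil genes summed to 2.1 CPM in UW (2 at 0) and 148 CPM in W (1 at 0), with a median log2 ratio of 6.59 over the 2 compared.

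Within W cluster 0 the members were detected unevenly between cells, and in part in the same cells. Ccl7 was detected in 56.7% (53.9 to 59.4, Clopper-Pearson) of cells with Ccl2 and 26.0% (22.0 to 30.4) of cells without it. After thinning to 2000 UMIs the shares were 32.7% and 9.06% (median depths 18642 and 14836 UMIs before thinning), and the ratio of the shares was 3.61. Cells with a Cxcl10 UMI (370 cells, median 19136 UMIs) held 1861 CPM of Ccl2, 322 CPM of Ccl5 and 483 CPM of Ccl7, and those without it (1349 cells, median 17146 UMIs) held 547, 116 and 127 CPM. The same cells had more of the interferon-inducible genes Ifit1 (215 against 73.8 CPM) and Ifit3 (472 against 232 CPM) and of Cxcl9 (308 against 122 CPM), another Cxcr3 ligand. Tyrobp was alike in both, at 3.36 and 3.52 CPM, and Kera was 2180 and 2649 CPM. The lymphocyte genes were higher with Cxcl10, with Nkg7 at 3.88 against 0.850 CPM and Cd3e at 1.81 against 0.0405 CPM. In W cluster 10 the same split gave Ccl2 at 471 and 150 CPM, but there Tyrobp was higher with Cxcl10, at 19.9 CPM (14.4 to 26.8) against 5.19 CPM (3.55 to 7.33), and Kera was lower, at 483 against 904 CPM, in 147 and 485 cells. The part of leukocyte RNA in the Cxcl10 levels of clusters 0 and 10 was not tested, and both splits were chosen after the data were seen.

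Cluster 10 held the highest levels of Cxcl12 and Cxcl14, and here too Ccl2, Ccl7 and Cxcl10 were higher in W. Cxcl14, a leading gene of the cluster, was 164 CPM (154 to 175) in 565 UW cells and 573 CPM (557 to 590) in 632 W cells, with a UMI in 52.7% and 76.9% of cells (43.1% and 63.4% thinned). In the epithelial clusters Cxcl14 did not exceed 9.85 CPM in either library. Cxcl12 was 36.4 CPM (31.6 to 41.7) and 77.8 CPM (71.9 to 84.0), a log2 ratio of 1.09 (0.87 to 1.33) that was 0.69 with every cell weighted equally and 0.84 after thinning. Cxcl10 was 18.2 and 286 CPM (log2 3.97, 3.69 to 4.27), but 10 of the 565 UW cells held 95.2% of its UW UMIs. Ccl2 at 18.4 and 233 CPM (log2 3.67, 3.38 to 3.96) and Ccl7 at 2.28 and 78.5 CPM (log2 5.11, 4.32 to 6.02) had W levels below those of cluster 0. The Ccl7 ratio rested on 13 UW counts, and without the 10 top cells of each library it was 8.11 (log2). The same step gave 7.59 for Cxcl10 and 4.62 for Ccl2. Cxcl16 did not differ beyond its counting interval, at 18.6 and 22.6 CPM (log2 0.28, -0.07 to 0.64). Ccl3 (10.7 CPM), Ccl4 (24.2 CPM) and Ccl5 (14.5 CPM) in W were at 0.141%, 0.264% and 0.429% of their highest cluster, within the 0.123 to 0.661% of the leukocyte references Tyrobp, Fcer1g, Lyz2, Laptm5, Ptprc, Coro1a, Fcgr1, Csf1r and Adgre1 in that cluster. The neutrophil genes there were at 0.177% (Csf3r), 0.419% (S100a8), 0.450% (S100a9) and 0.504% (Cxcr2), with Retnlg at 0.

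In the epithelium, Cxcl16 in both libraries and Cxcl10 in a few clusters had the highest levels of the CXC members. Cxcl16 ranged over the 10 epithelial clusters from 27.8 to 90.2 CPM in UW and from 54.0 to 116 CPM in W. The largest ratio was in cluster 3, the Krt18 cluster, where it was 31.6 CPM (29.7 to 33.6) in UW and 104 CPM (100 to 109) in W, a log2 ratio of 1.72 (1.61 to 1.83). In cluster 3 a UMI was found in 38.3% and 76.3% of cells, or 12.5% and 36.5% after thinning. Cluster 11, the replicating cluster, followed with 27.8 and 54.0 CPM (log2 0.96, 0.78 to 1.13). In cluster 1 the libraries were alike, with 56.4 and 56.2 CPM. In UW, then, Cxcl16 was lowest in clusters 11 and 3 and highest in the superficial clusters 6 and 7 (90.2 and 88.1 CPM), and in W clusters 2, 3 and 4 stood at like levels (102, 104 and 103 CPM).

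Cxcl10 was higher in UW than in W in the proliferating and basal clusters, which is opposite to its direction in clusters 0 and 10. In cluster 8 it was 58.4 CPM (54.3 to 62.7) in UW and 15.5 CPM (14.5 to 16.7) in W, a log2 ratio of -1.91 (-2.06 to -1.76). In cluster 3 it was 13.4 and 5.76 CPM (log2 -1.22, -1.51 to -0.94) and in cluster 11 it was 11.5 and 6.23 CPM (log2 -0.88). In cluster 9 the levels were alike, at 22.8 and 26.4 CPM (log2 0.21, -0.04 to 0.46), and in the differentiated clusters 1, 2, 4, 6 and 7 they were 0.417 to 0.758 CPM in UW and 3.43 to 4.57 CPM in W. Over the epithelium of W they were 0.425 to 3.27% of the level in cluster 15, above the percents of Lyz2 (0.0570 to 0.222%), Fcer1g (0.0758 to 0.295%) and Fcgr1 (0.0310 to 0.145%), leukocyte genes that were also highest in cluster 15. Kera, highest in cluster 0, was at 0.485 to 0.666% in these clusters. The part of free RNA in the low Cxcl10 levels was not tested. A small number of cells carried the UW level. In cluster 8 the 10 cells with most Cxcl10 held 57.3% of its UMIs, and without the 10 top cells of both libraries the log2 ratio was -1.24. The same step in cluster 3 left a log2 ratio of -0.85, under 2-fold. The share of cells with a UMI in cluster 8 was 16.4% in UW and 18.8% in W, but 9.02% and 3.81% after thinning (median depths 24704 and 35499 UMIs). Of the 535 UW cells of cluster 8, the 88 with Cxcl10 (median 29746 UMIs) had 69.5 CPM of Ifit1 and 9.08 CPM of Ifit3, against 62.7 and 9.16 CPM in the 447 without it (23494 UMIs), with overlapping intervals. Tyrobp was 1.58 CPM (4 counts) with Cxcl10 and 0 without it. Ccl4 was 75.8 and 0.585 CPM, with 50% or more of its UMIs in 1 cell. The part of leukocyte RNA here was not tested. In UW cluster 3 the 76 cells with Cxcl10 had 85.5 CPM of Ifit1 against 88.9 CPM in the 1713 without it, and less Ifit3, at 2.69 CPM (0.734 to 6.89, 4 counts) against 11.1 CPM (9.95 to 12.3). These splits too were chosen after the data were seen.

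**Figure D4:**
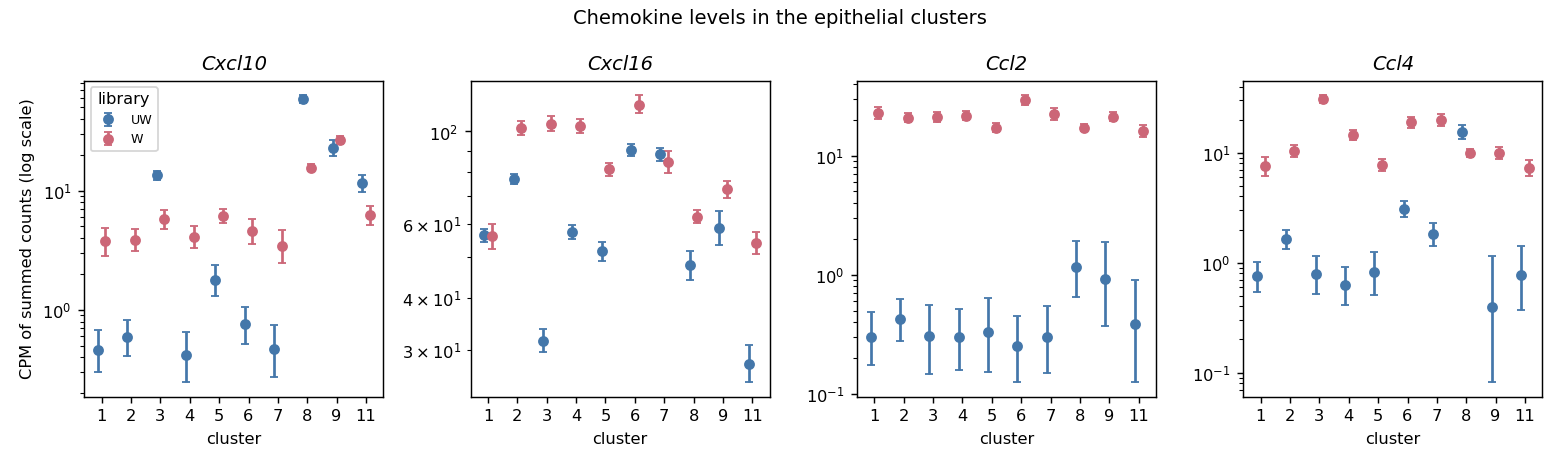
CPM of Cxcl10, Cxcl16, Ccl2 and Ccl4 in the 10 epithelial clusters (x axis) in UW and W, on log axes that differ between panels, with exact Poisson 95% intervals. Cxcl10 in UW lies above W in clusters 3, 8 and 11, Cxcl16 lies farthest apart in cluster 3, and Ccl2 in W is flat across clusters at 16.1 to 29.1 CPM.

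The CC members in the epithelial clusters of W were low in every cluster. Ccl2 was 16.1 to 29.1 CPM in W (0.253 to 1.17 CPM in UW), Ccl7 was 6.94 to 10.9 CPM, and Ccl5 was 1.86 to 7.05 CPM. As percents of the highest cluster these were 0.311 to 0.564% for Ccl2, 0.165 to 0.260% for Ccl7, 0.0486 to 0.244% for Ccl3, 0.0802 to 0.338% for Ccl4 and 0.0548 to 0.208% for Ccl5. Tyrobp lay at 0.0633 to 0.370%, Ptprc at 0.0471 to 0.249% and, for RNA of stromal cells, Kera at 0.485 to 0.666% in the same clusters. Of the references highest in cluster 15, as Ccl2 and Ccl7 were, Fcer1g lay at 0.0758 to 0.295%, Csf1r at 0.0319 to 0.246%, Lyz2 at 0.0570 to 0.222%, Adgre1 at 0.0286 to 0.184% and Fcgr1 at 0.0310 to 0.145%. The percents of Ccl3, Ccl4 and Ccl5 thus lay within the span of the leukocyte references, and those of Ccl7 overlapped the upper part of the cluster 15 references. Those of Ccl2 were above all 5 cluster 15 references and overlapped Kera and leukocyte genes highest elsewhere. Among these were Tyrobp, Coro1a (0.173 to 0.402%), Laptm5 (0.0990 to 0.364%), Cxcr2 (0.0860 to 0.446%) and Retnlg (0 to 0.373%). S100a8 (0.476 to 2.12%) overlapped Ccl2 as well, and S100a9 (0.866 to 4.85%) lay above it. Both also had UMIs in the epithelium of UW, at 3.72 and 151 CPM in cluster 7, although cluster 13 held 1 cell there. They are thus not references for leukocyte RNA alone. The UMIs of the CC members were not even over cells. In W cluster 3, 4 of 885 cells held 50% of Ccl3 UMIs, and in cluster 8 it was 7 of 1332 cells. The 180 cells of W cluster 3 with Ccl4 (median 28250 UMIs) had 41.6 CPM of Tyrobp against 3.81 CPM in the 705 without it (23238 UMIs), a split chosen after the data were seen. The parts of free RNA and of leukocyte RNA in these levels were not tested. Cxcl12 and Cxcl14 in the epithelium of W did not exceed 1.97% and 1.00% of cluster 10. The number of Ccl2 UMIs per Ccl7 UMI was 1.99 to 2.75 in the epithelial clusters, between the 1.23 of cluster 15 and the 4.06 of cluster 0. Ccl4 UMIs per Ccl3 UMI were 1.43 to 2.66, between the 1.20 of cluster 13 and the 3.84 of cluster 15.

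The counts of members past 2-fold in the epithelium include these low levels. Leukocyte genes were higher in W in the same clusters. Of the immune references compared, 6 of 6 passed 2-fold in cluster 3 (median log2 4.55, summed level 1.71 CPM in UW and 43.2 CPM in W), 6 of 6 in cluster 8 (2.60, 3.99 and 22.8 CPM) and 5 of 5 in cluster 9 (3.58, 2.37 and 27.6 CPM). Their part in the member counts was not tested. In cluster 3, 6 of 8 members were higher and Cxcl10 was lower, against 15.1% of all genes higher and 11.1% lower. In cluster 8, 4 of 8 were higher and Cxcl10 lower, against 10.8% and 9.58%, and in cluster 9, 5 of 8 were higher and none lower, against 9.12% and 9.76%. In cluster 1, 8 of 9 were higher, and in clusters 2, 4, 6 and 7 it was 7 of 8, with none lower. In cluster 5, 7 of 9 were higher and Cxcl12 lower, and in cluster 11, 5 of 8 were higher and Cxcl14 lower. Of all genes in these clusters, 12.7 to 23.2% were higher and 6.48 to 13.5% lower. Ccl4 in cluster 3 was 0.793 CPM in UW and 30.9 CPM in W, with 62.7% of the W UMIs in 10 cells. Without cells that held Tyrobp or Ptprc its log2 ratio moved from 5.28 to 3.68. In cluster 8 Ccl4 was 15.5 CPM in UW and 9.94 CPM in W (log2 -0.64), but 1 UW cell held 191 of its 198 UMIs. Leaving out the 10 top cells of each library left no Ccl4 UMI in UW cluster 8. The log2 value of 4.87 was then a bound against the floor of 3 counts. With no UMI left, UW could not be the higher library, so no direction of Ccl4 was drawn from this step.

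Among the immune cells of W, Ccl3, which as a leading gene describes cluster 13, and Ccl4 were highest in cluster 13, at 7593 CPM (7467 to 7720) and 9141 CPM (9003 to 9280), with a UMI in 91.1% and 86.8% of its 710 cells. The epithelial clusters had 8.05 to 12.5% and 16.1 to 23.0% of cells with a UMI of these genes at median depths of 20584 UMIs or more. Ccl3 and Ccl4 did not come in a fixed proportion, since Ccl4 UMIs per Ccl3 UMI were 1.20 (1.18 to 1.23) in cluster 13, 4.10 (3.91 to 4.30) in cluster 14 and 3.84 (3.67 to 4.00) in cluster 15. Ccl2 in cluster 13 was 935 CPM, but a UMI was found in only 34.1% of cells and 15 cells held 50% of the UMIs. In the Mono-like cluster 15, Ccl2 (5168 CPM) and Ccl7 (4213 CPM) were found in 96.8% and 94.4% of 251 cells, and the 43 cells richest in Ccl7 held 50% of it. Cluster 15 also had Ccl4 at 3750 CPM, Ccl3 at 978 CPM, Cxcl10 at 807 CPM (774 to 842), Ccl5 at 631 CPM and Cxcl16 at 310 CPM (290 to 332). Every cell of cluster 15 held UMIs of 2 or more members, with a median of 5 members per cell. Cluster 14 had Ccl4 at 2463 CPM, Ccl2 at 1193 CPM, Ccl7 at 843 CPM, Cxcl10 at 641 CPM, Ccl5 at 602 CPM and Ccl3 at 601 CPM. Its Cxcl16 (350 CPM, 331 to 370) was the highest of the clusters compared, although its interval overlapped that of cluster 15.

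**Figure D5:**
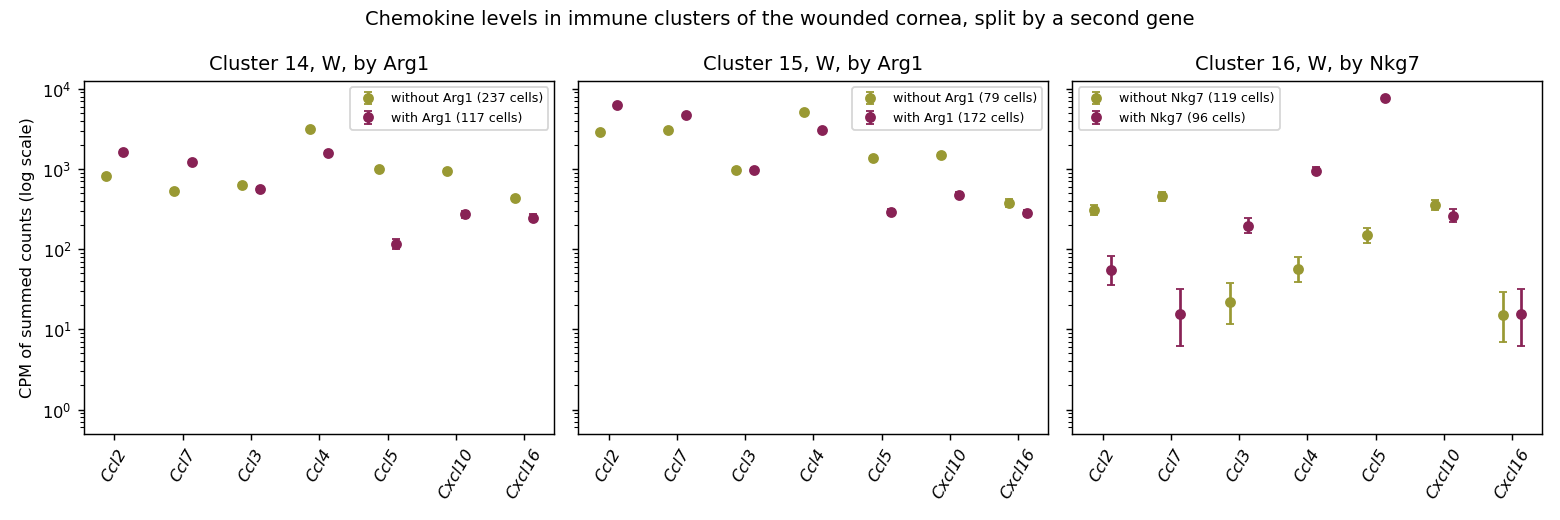
CPM of 7 chemokines (log axis, exact Poisson 95% intervals) in cells of W clusters 14 and 15 with and without a UMI of Arg1, and of cluster 16 with and without a UMI of Nkg7. Ccl2 and Ccl7 are higher and Ccl5 and Cxcl10 lower in cells with Arg1, and Ccl5 and Ccl4 are higher in cells with Nkg7.

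Inside clusters 14 and 15 the members differed in level between cells with and without Arg1, an arginase of wound macrophages. In cluster 15 the 172 cells with Arg1 held 6264 CPM of Ccl2 (6150 to 6380) and the 79 without it 2856 CPM (2745 to 2971), at median depths of 9998 and 10622 UMIs. Ccl7 went the same way, at 4770 and 3037 CPM. Ccl5 was 289 CPM with Arg1 and 1352 CPM without, Cxcl10 was 480 and 1497 CPM, and Ccl4 was 3078 and 5168 CPM. Ccl3 was alike, at 981 and 971 CPM. In cluster 14 the directions were the same for Ccl2 (1640 and 827 CPM), Ccl7 (1228 and 528 CPM), Ccl5 (117 and 999 CPM), Cxcl10 (273 and 943 CPM) and Ccl4 (1593 and 3176 CPM), at depths of 10822 and 8093 UMIs. Cells of the same pool are not replicates, so these are values with counting intervals and no test.

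Cells of cluster 14 with different dendritic cell genes held different members. The 40 cells of cluster 14 with Flt3, a receptor of conventional dendritic cells, held 37.8 CPM of Ccl2, 8.21 CPM of Ccl7, 16.4 CPM of Ccl3 and 88.7 CPM of Ccl4, against 1422, 1009, 716 and 2933 CPM in the 314 cells without it, although their depth was greater (medians 13309 and 7869.5 UMIs). Cxcl16 was alike on both sides, at 325 CPM (281 to 374) and 355 CPM (334 to 377). The 21 cells with Cd207, which encodes langerin of Langerhans cells, held 6681 CPM of Ccl4 and 1261 CPM of Cxcl10, against 2115 and 590 CPM in the other 333, and less Ccl2 (335 against 1264 CPM). The 33 cells with Ccr7, the receptor of dendritic cells bound for lymph nodes, held 1010 CPM of Ccl5 against 542 CPM and 119 CPM of Ccl2 against 1351 CPM, a split chosen after the data were seen.

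In cluster 16 Ccl5 was the leading member, at 3390 CPM (3279 to 3504) with a UMI in 42.3% (35.6 to 49.2) of 215 cells. It was found almost wholly in cells with cytotoxic genes. The 96 cells with Nkg7 held 7620 CPM of Ccl5 and 952 CPM of Ccl4, and the 119 without it 150 and 56.1 CPM, at like depths (4387.5 and 4434 UMIs). In the 49 cells with Cd8a Ccl5 was 11865 CPM, and in the 52 with Cd4 and the 27 with Foxp3, the factor of regulatory T cells, it was 231 and 86.1 CPM. Ccl4 was detected in 59.3% (48.5 to 69.5) of cells with Ccl5 and 7.26% (3.37 to 13.3) of those without, or 55.3% and 3.33% after thinning. Cxcl10 did not follow these genes, at 262 CPM with Nkg7 and 357 CPM without. Ccl7 in this cluster (266 CPM) rested on 1 cell with 254 of its 276 UMIs.

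The receptors for these ligands were found in the immune clusters more than in the resident ones. Of 18 receptor genes on the list, 10 reached 50 CPM in some group of at least 50 cells. Ccr1, which binds Ccl3, Ccl5 and Ccl7, was 1190 CPM in cluster 13 and 149 and 196 CPM in clusters 14 and 15. It is a leading gene of cluster 13, so its level there describes how the cluster formed and is not a finding. Ccr2, the receptor of Ccl2 and Ccl7, was 111, 170 and 152 CPM in clusters 14, 15 and 16 and 1.63 CPM in cluster 13. Ccr7 was highest in cluster 14 (115 CPM), and Cxcr6 (292 CPM) and Cxcr3 (71.2 CPM) in cluster 16. Cxcr4, the receptor of Cxcl12, was 374 CPM in cluster 13 and 70.5 to 104 CPM in clusters 14 to 16. Ccrl2, a non-signalling receptor, was 1486 CPM and Gpr35 65.9 CPM in cluster 13. Ackr3, which takes up Cxcl12, was found in resident cells, at 13.3 and 42.6 CPM in UW and W of cluster 0 (log2 1.69, 1.52 to 1.85), 10.8 and 66.8 CPM in cluster 3, and 59.1 and 31.2 CPM in cluster 9. In cluster 0, 4 of 7 receptors compared (Ccr1, Cxcr6, Ackr3 and Ccrl2) were higher by 2-fold or more and none lower, against 7.34% and 9.67% of all genes there, and Ccr1 and Cxcr6 rested on 21 and 16 counts in W.

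Other chemokines for mononuclear cells had their own sources. Of 22 genes on the list 18 were in the table and 9 reached 50 CPM. In cluster 0, 8 of 12 compared were higher in W and none lower, against 7.34% and 9.67% of all genes. Ccl8, a ligand of Ccr8 in mice, was 5.80 and 636 CPM there (log2 6.78, 6.56 to 7.01), and Cxcl9 had 0 UMIs in UW and 167 CPM in W, at least 10.62 on the log2 scale. Ccl6 (2857 CPM), Ccl9 (1640 CPM) and Ccl12 (1016 CPM) were highest in cluster 15, whose leading genes they are. They are among the 8 counted in cluster 0, where they were 1.73, 1.11 and 1.02 CPM in W. The part of free RNA in these levels was not tested. Cx3cl1 was highest in cluster 10 (54.1 and 81.0 CPM) and was lower in W past 2-fold in every epithelial cluster except cluster 8, with log2 ratios of -1.87 to -1.19 in these. Xcl1 (61.6 CPM) was highest in cluster 16, and Ccl17 (75.2 CPM) and Cxcl13 (57.3 CPM) in cluster 14. Among 8 proteases and carriers 7 reached 50 CPM. In cluster 0 Mmp12 had 0 UMIs in UW and 58.7 CPM in W, Mmp9 was 1.05 and 9.40 CPM, the heparan sulphate carrier Sdc1 was 122 and 51.0 CPM, Sdc4 was 1066 and 1307 CPM and Mmp2 was 601 and 664 CPM. There 2 of 8 were higher past 2-fold and 1 lower, against 7.34% and 9.67% of all genes. Adam10, which sheds Cxcl16, was 47.1 and 39.8 CPM in cluster 0. In the epithelium, where most Cxcl16 UMIs lay, Adam10 was lower in W past 2-fold in cluster 2 (45.0 and 19.0 CPM, log2 -1.25), cluster 4 (49.2 and 23.7 CPM, log2 -1.05) and cluster 6 (36.1 and 14.5 CPM, log2 -1.32). Adam17 did not pass 2-fold in cluster 0 or in any epithelial cluster. Among 8 cytokines known to induce chemokines, 6 reached 50 CPM, with Il1b (2736 CPM), Tnf (345 CPM), Il1a (271 CPM) and Osm (133 CPM) highest in cluster 13 and Ifng (119 CPM) and Il17a (130 CPM) in cluster 16. Epithelial cluster 3 had Il1a at 12.9 CPM in UW and 148 CPM in W.

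Across the 28 groups of a cluster and library with at least 50 cells, patterns of log2(CPM + 1) were most alike for Ccl3 and Ccl4 (Pearson r = 0.99) and for Ccl2 and Ccl7 (r = 0.97), which are also the 2 pairs of close neighbours on chromosome 11. Cxcl12 and Cxcl14 had r = 0.80, and Cxcl16 and Cxcl14 had r = -0.42. These values are descriptions over groups that share 2 libraries and differ in depth. Outside the members, the genes most like each were named. For Ccl2 they were Ccl8 (r = 0.952), Mpeg1 (0.948) and Slfn5 (0.944), and for Ccl7 they were Ccl8, Lyz2 and H2-M3 (each 0.924). Ccl3 was nearest to Tyrobp (0.988), Clec4d (0.986) and Clec4e (0.980), and Ccl4 to Tyrobp (0.980), Fcer1g (0.979) and Lilr4b (0.968). For Ccl5 they were AW112010 (0.968), Rgs1 (0.912) and Glipr2 (0.908), and for Cxcl10 Man1a (0.907), Relb (0.896) and Plekho2 (0.892). Cxcl12 was nearest to Plvap (0.974), Ccdc80 (0.949) and Lbp (0.932), Cxcl14 to Htra3 (0.922), Aspn (0.903) and Kcne4 (0.896), and Cxcl16 to Stx3 (0.817), Blnk (0.817) and Lgals3 (0.806).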

How the data were processed

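Corneas were dissociated and sequenced on the 10x Genomics platform, 1 library for UW and 1 for W, each from 4 pooled mice. The authors deposited whole-number UMI counts per cell and gene with a cluster number for each cell. The submitters' processing notes name Cell Ranger 3.1.0 and Seurat and the mm9 build, while the study's methods name another build, so the build of the counts is uncertain. No coordinate was used to make a value, and positions are from GRCm38. The study states more cells than the tables hold.

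The members and all gene lists were chosen with earlier results of these data known. Raw counts were summed per cluster and library and divided by their total to give CPM. Intervals were exact Poisson (CPM), Clopper-Pearson (shares) and conditional binomial (ratios), all at 95%. A sum of 0 was set to a floor of 3 counts over the group. Genes with at least 20 counts over both libraries were compared, and 2-fold was the threshold of size. There was no test, because each condition had 1 library. Cells were thinned to 5000 UMIs (2000 in clusters 13 to 17, and for sources and co-detection) to compare shares, and shallower cells were left out of the thinned values. The named genes were every member, genes of the lists that reached 50 CPM in a group of at least 50 cells, and the 3 genes most like each member. The study's methods state a doublet removal step upstream of these tables, and cells that a first DoubletFinder run in the tables still marks were kept, and left out as an alternative. Other alternatives were TMM and DESeq2 size factors, a stricter cell filter (1000 or more genes detected, mitochondrial share up to 5%), the mean of the cells' own CPM, thinning, and, added after the data were seen, leaving out the 10 cells with most UMIs of a member or the cells with Tyrobp or Ptprc, or with Nkg7 or Cd3e. The splits by Ccr7, Ccl4, Ccl5 and Cxcl10 were also chosen after the data were seen. The values of 1 listed receptor are not reported here. Only the ratio and its interval were tested on simulated data, as Poisson sums with the gene means of cluster 0 and without unevenness between cells. Python 3.11.15, numpy 2.4.6, pandas 2.3.3, scipy 1.17.1, matplotlib 3.10.9, R 4.3.3, edgeR 4.0.16 (TMM factors) and DESeq2 1.42.0 (size factors) were used.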

Additional observations from a re-analysis of the deposited data

Results flagged for a closer look

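Cxcl10 had opposite directions between clusters. Its log2 ratio of W over UW was 5.32 in cluster 0, -1.91 in cluster 8 and -1.22 in cluster 3. Cxcl12 had a log2 ratio of -2.01 in cluster 5 (30 counts in UW and 10 in W) and 4.10 in cluster 1 (5 and 22 counts, 15 of them in 1 cell). Cxcl14 had -1.08 in cluster 11 and 3.26 in cluster 1 (11 and 27 counts). With 1 library per condition the differences between clusters were not tested.

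Immune cells too few for the comparisons also held members. The 1 UW cell of cluster 13 had Ccl3 at 4104 CPM (6 counts). The 7 UW cells of cluster 14 had Ccl4 at 4417 CPM (34 counts), and the 7 of cluster 16 had Ccl5 at 3363 CPM (89 counts in 2 cells). In W, the 29 cells of cluster 17, which carried both stromal and neutrophil genes, had Ccl4 at 1214 CPM (647 counts).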

How the results depend on the processing

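No paired analysis was possible because each condition had 1 library. Of 82 member ratios past 2-fold, 82 kept their side with TMM factors, DESeq2 size factors, without marked doublets and without cells holding Tyrobp or Ptprc, or Nkg7 or Cd3e, 81 with the stricter cell filter and with the mean of cells' CPM, 77 of 81 with thinning, and 78 of 80 without the 10 top cells. None of these reversed, while Ccl4 in cluster 8, not past 2-fold at -0.64, was 0.04 with the mean of cells' CPM, 0.22 thinned and 3.78 without cells holding Tyrobp or Ptprc. Without the top cells it was a bound of at least 4.87, as no Ccl4 UMI was left in UW. Without the 10 top cells, 0 members were lower in cluster 3, since Cxcl10 stood at -0.85. Cxcl14 in cluster 11 stood at -0.99 with the stricter filter, -0.83 thinned and -0.94 without its top cells, and thinned Ccl5 at 0.96 in cluster 8 and 0.83 in cluster 9. Thinning moved shares of cells. The share with Ccl2 was 4.62% (UW) and 54.4% (W) in cluster 0 and 90.4% in cluster 15, with Ccl7 82.9% in cluster 15, with Ccl5 8.43% and Cxcl10 12.2% in cluster 0, with Cxcl14 43.1% (UW) and 63.4% (W) in cluster 10, and with Cxcl10 9.02% in UW cluster 8. The stricter filter gave 94.0% for Ccl3 in cluster 13. Of the UMIs in W, thinning to 2000 UMIs and the stricter filter put 30.8% and 51.4% of Ccl2 in cluster 0, 54.3% and 46.9% of Ccl7 in cluster 15, 87.7% and 61.6% of Ccl3 and 70.4% and 35.8% of Ccl4 in cluster 13, 19.0% and 30.2% of Cxcl10 in cluster 0, and 74.6% and 84.7% of Cxcl16 in epithelial clusters. Thinning alone put 13.9% of Ccl5 in cluster 0 and 85.1% of Cxcl14 in cluster 10. In thinned cells of cluster 0 the ratio of shares was 3.61 for Ccl7 by Ccl2, 1.77 for Ccl2 by Ccl5 and 2.12 for Ccl5 by Cxcl10. With a pseudocount of 10, 13 of the 27 most alike genes remained. The median of the references' highest epithelial percent was 0.446 for neutrophil and 0.203 for mononuclear genes. The cause of these shifts was not tested. TMM moved the median of all genes by 0.14 (log2) in cluster 0, and DESeq2 by 0.17. Depth limits Ccl20, with 30 counts in all.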
